A study of Mus musculus with 10 samples.

Results

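Voltage-gated calcium channels of muscle are built from a pore-forming alpha1 subunit and accessory subunits, and the genes described here are 10 of them or their close partners: *Cacna1c*, *Cacna1s*, *Cacna1g*, *Cacna1h*, *Cacnb1*, *Cacnb2*, *Cacng1*, *Cacng6*, *Cacna2d1* and *Stac3*. They were chosen by gene symbol and make up 10 of the 23337 genes in the count files. The libraries came from a study of E0, an enhancer in intron 1 of the titin gene *Ttn*, and bulk RNA-Seq was made from left ventricle (LV) and skeletal muscle (SkM) of 5 mice, whose age is not in the labels. All 5 were hybrids of C57BL/6 and 129SvEv, bred from C57BL/6 *E0del/+* and 129SvEv WT parents. The 2 WT mice carried E0 on both *Ttn* alleles, and the 3 *E0del/+* mice lacked it on 1 allele after CRISPR/Cas9 editing. Each library held RNA of 1 tissue of 1 mouse, which gave 2 WT and 3 *E0del/+* LVs and the same numbers of SkM libraries.

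The alpha1 subunit forms the calcium pore and the voltage sensor, the cytoplasmic beta subunit brings the pore to the membrane and tunes its gating, and the alpha2delta and gamma subunits modify trafficking and current. In cardiomyocytes, calcium entering through L-type channels triggers calcium release from the sarcoplasmic reticulum, whereas in skeletal fibers the L-type channel acts chiefly as a voltage sensor that is mechanically coupled to the ryanodine receptor. STAC3 is an adaptor protein needed for that coupling in skeletal muscle.

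Levels are given as raw counts scaled to the total of the library (CPM), or as CPM per kb of summed exon length (per kb) where genes are compared with each other. Total counts were between 11010021 and 15361520 in the 5 LVs and between 13892390 and 17484873 in the 5 SkM libraries. The 10 most abundant genes took 12.5% to 14.5% of the counts in LVs and 27.2% to 29.5% in SkM. *Ttn* was at 7959 and 9344 CPM in WT LVs 1 and 2 and at 7737, 5560.1 and 6597 CPM in *E0del/+* LVs 1 to 3. Every *E0del/+* LV was thus below both WT LVs, by little for *E0del/+* LV 1 against WT LV 1. The same order held for 6.53% of all genes tested in LV. WT LV 2 also held fast skeletal muscle counts, described below, and their part in its *Ttn* level was not tested. In SkM, *Ttn* was at 24205 and 15856 CPM in WT and at 20092, 18854 and 13585 CPM in *E0del/+*, so the genotypes overlapped there. These counts come from exons, which lie outside the deleted intronic element, and do not check the genotype labels.

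Markers matched the labelled tissue in 9 libraries, and WT LV 2 stood apart. The summed level of 10 fast skeletal muscle genes was 160.0 CPM in WT LV 1, 183, 169 and 169 CPM in *E0del/+* LVs 1 to 3, and 161364 to 172948 CPM in the SkM libraries. In WT LV 2 it was 39920 CPM, with all 10 genes detected and *Myh4*, the fast myosin heavy chain, the most abundant at 18473 CPM. After subtraction of the mean of the other 4 LVs, these genes reached a median of 22.7% (range 16.3% to 24.7%) of their mean level in SkM. The 6 cardiac muscle genes, led by *Myh6*, summed to 60759 CPM in WT LV 2 and to between 75394 and 88464 CPM in the other LVs. WT LV 2 is therefore described apart, and the tissue comparison was made without both libraries of that mouse.

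WT SkM 1 stood apart in its Y-linked genes. The summed level of 4 Y-linked genes was 0.461 CPM in WT LV 1 but 21.6 CPM in WT SkM 1 of the same mouse. The mouse of WT replicate 2 had 222 CPM in LV and 158 CPM in SkM, and that of *E0del/+* replicate 3 had 211 and 177 CPM. The remaining *E0del/+* mice were at 0.586 and 3.27 CPM in LV and at 0.861 and 0.7995 CPM in SkM. The sex of the mice is not in the labels, and the part of either library's unusual counts in the results below was not tested unless a value without the library is given.

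The 10 genes lie on 8 chromosomes of mm10: *Cacna1c* at chr6:118592296-119196409, *Cacna1s* at chr1:136052901-136119822, *Cacna1g* at chr11:94408391-94474198, *Cacna1h* at chr17:25374287-25433783 and *Cacnb1* at chr11:98002901-98022627. *Cacnb2* lies at chr2:14604306-14987908, *Cacng1* at chr11:107703218-107716476, *Cacng6* at chr7:3424662-3434940, *Cacna2d1* at chr5:15934691-16374511 and *Stac3* at chr10:127501717-127508815. *Cacna1h* shares exon sequence with *Tpsg1* in the files, and the libraries carry no strand information, so its counts are uncertain to that extent. By GENCODE M21, exons of *Cacna1s* also overlap *Gm37759* and those of *Cacnb2* overlap *Gm10849*, so the same limit holds for them. Promoter entries of RefSeq on GRCm38.p6 were found for 6 of the 10 genes, and none is shown for *Cacna1g*, *Cacna1h*, *Cacng1* and *Stac3*. The 250 bases before the start of transcription are printed for the 4 genes with the largest tissue difference among those 6, with capitals marking matches on either strand to the E-box CAGCTG or the MCAT element CATTCC. Where a gene has several entries, the most upstream is shown.
*Cacna1s*, chr1:136052561-136052810, plus strand: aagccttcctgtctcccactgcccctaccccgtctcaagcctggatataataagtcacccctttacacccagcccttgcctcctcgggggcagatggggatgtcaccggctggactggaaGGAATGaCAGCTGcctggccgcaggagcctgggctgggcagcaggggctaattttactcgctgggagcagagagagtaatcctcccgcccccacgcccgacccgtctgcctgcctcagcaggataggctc
*Cacng6*, chr7:3424412-3424661, plus strand: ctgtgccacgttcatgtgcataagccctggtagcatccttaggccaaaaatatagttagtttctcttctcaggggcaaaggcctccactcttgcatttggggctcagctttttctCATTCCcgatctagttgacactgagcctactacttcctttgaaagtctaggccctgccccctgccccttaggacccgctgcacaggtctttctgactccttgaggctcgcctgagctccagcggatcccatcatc
*Cacna1c*, chr6:119196410-119196659, minus strand: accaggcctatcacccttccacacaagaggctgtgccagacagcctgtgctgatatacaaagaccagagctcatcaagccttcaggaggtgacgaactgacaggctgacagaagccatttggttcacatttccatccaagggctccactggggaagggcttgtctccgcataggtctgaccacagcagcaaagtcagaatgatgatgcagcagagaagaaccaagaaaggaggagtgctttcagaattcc
*Cacnb2*, chr2:14604056-14604305, plus strand: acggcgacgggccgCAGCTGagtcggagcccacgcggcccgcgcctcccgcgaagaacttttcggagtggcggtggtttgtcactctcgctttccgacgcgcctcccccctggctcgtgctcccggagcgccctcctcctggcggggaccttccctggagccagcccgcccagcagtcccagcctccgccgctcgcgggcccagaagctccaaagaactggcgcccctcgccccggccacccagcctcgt
The *Cacna1s* promoter held an MCAT match beginning at position -130 and an E-box beginning at -123, counted from the start of transcription. *Cacng6* held an MCAT match at -135, *Cacnb2* an E-box at -236, and *Cacna1c* neither. Over 32851 RefSeq promoters of the same length, 13.0% held the E-box and 12.6% the MCAT letters, and the MEF2 motif, held by 2.92%, was in none of the entries of the 6 genes. These matches describe letters in the window and no binding was measured.

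The first comparison asked how the channel genes of heart and skeletal muscle differ within the same mice. Over WT mouse 1 and the 3 *E0del/+* mice, *Cacna1s*, *Cacnb1*, *Cacng1*, *Cacng6*, *Cacna2d1* and *Stac3* were higher in SkM, and *Cacna1c*, *Cacna1g*, *Cacna1h* and *Cacnb2* were higher in LV. Each direction held in 4 of 4 mice, and also in the mouse of WT replicate 2. By edgeR's quasi-likelihood test with the mouse as a block, all 10 genes passed an adjusted p of 0.05, 6 of them higher in SkM and 4 higher in LV. Of the 13375 genes tested, 29.8% were higher in SkM and 31.5% higher in LV by that rule. When an absolute log2 fold change of at least 2 was also required, 6 of the 10 remained higher in SkM (5.61% of all genes tested) and 3 higher in LV (8.54%), since *Cacna1h* missed it. The median log2 fold change (SkM minus LV) was 3.30 over the 10 genes and -0.02 over all genes tested. Since the 10 genes lay on both sides of 0, nothing is read from the difference of these medians. The genes had been chosen as cardiac or skeletal subunits, so these directions are a description. In bulk tissue, fewer cells of a type and less RNA per cell cannot be told apart.

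**Figure D1:**
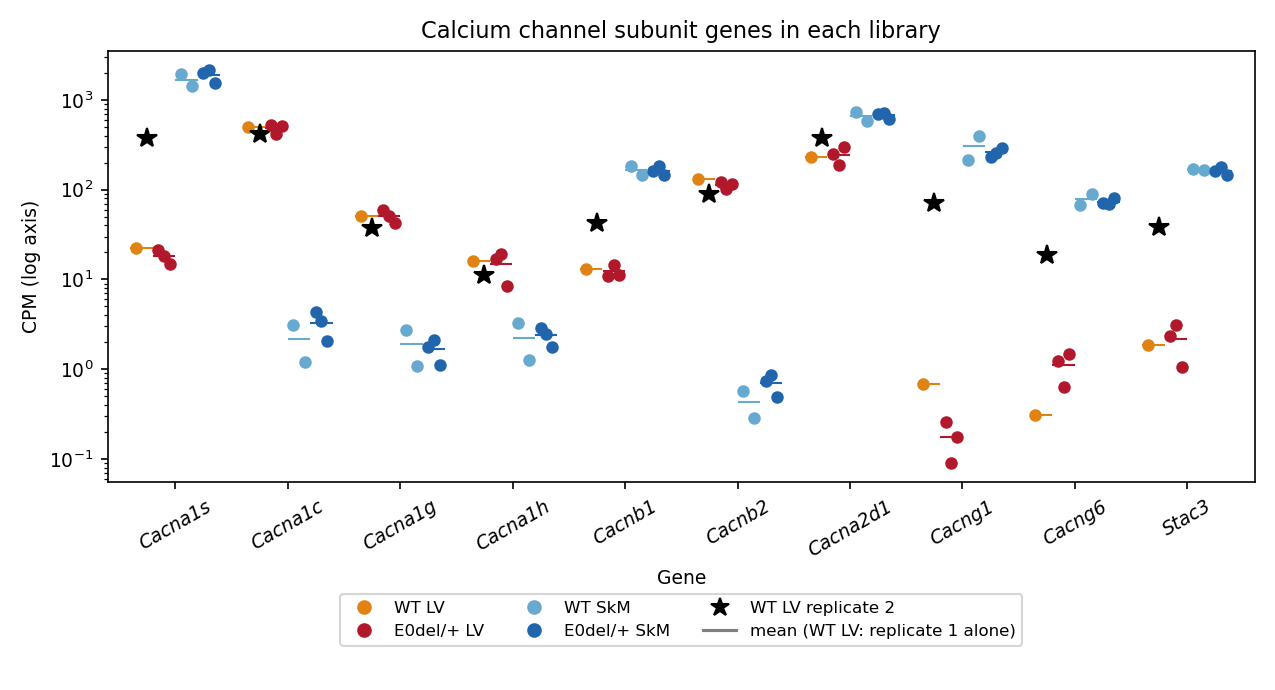
CPM of the 10 genes in each library on a log scale, LVs and SkM libraries side by side, with a star for WT LV 2. *Cacna1s* lay between 15.0 and 22.4 CPM in 4 LVs, at 375 CPM in WT LV 2 and between 1417 and 2139.7 CPM in SkM.

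*Cacna1c* encodes the pore of the cardiac L-type channel. It was at 497 and 422 CPM in WT LVs 1 and 2 and at 532, 413 and 510.4 CPM in *E0del/+* LVs 1 to 3. In SkM, *Cacna1c* was at 3.10 and 1.20 CPM in WT and at 4.31, 3.40 and 2.04 CPM in *E0del/+*. Every LV, WT LV 2 included, was far above every SkM library, and the genotypes overlapped in both tissues. The LV level was 122 to 250.1 times the SkM level within the 4 mice and 351 times in the mouse of WT replicate 2. The log2 fold change (SkM minus LV) was -6.61 ± 0.254 (SE; edgeR adjusted p = 1.29e-06, lower in SkM in 4 of 4 mice), and it was -6.81 with all 10 libraries.

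*Cacna1s* encodes the pore and voltage sensor of the skeletal L-type channel. It was at 22.4 and 375 CPM in WT LVs 1 and 2 and at 21.5, 18.1 and 15.0 CPM in *E0del/+* LVs. The SkM libraries held 1961 and 1417 CPM in WT and 1998, 2139.7 and 1553 CPM in *E0del/+*. The 4 LVs other than WT LV 2 lay close together, and WT LV 2 lay between them and the SkM libraries, at 19.8% of the mean SkM level after subtraction of the other LVs. Within the 4 mice, SkM was 87.4 to 118 times LV, against 3.78 times in the mouse of WT replicate 2. The log2 fold change was 7.29 ± 0.247 (SE; edgeR adjusted p = 7.39e-07, higher in SkM in 4 of 4 mice), and 6.62 ± 0.881 with all 10 libraries.

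*Cacna1g* and *Cacna1h* encode T-type pores, which open at more negative voltages. *Cacna1g* was at 50.5 and 37.4 CPM in WT LVs and at 60.0, 51.0 and 42.0 CPM in *E0del/+* LVs, against 2.74 and 1.09 CPM in WT SkM and 1.78, 2.13 and 1.13 CPM in *E0del/+* SkM. *Cacna1h* was at 16.1 and 11.1 CPM in WT LVs and at 16.99, 19.2 and 8.55 CPM in *E0del/+* LVs. Its SkM values were 3.24 and 1.26 CPM in WT and 2.89, 2.47 and 1.76 CPM in *E0del/+*. For both genes all LVs exceeded all SkM libraries, with overlapping genotypes, but the gap was wider for *Cacna1g*. LV was 18.4 to 37.3 times SkM for *Cacna1g* within the 4 mice and 34.4 times in the mouse of WT replicate 2, and for *Cacna1h* these values were 4.86 to 7.77 and 8.80 times. The log2 fold changes were -4.08 ± 0.207 for *Cacna1g* and -1.88 ± 0.167 for *Cacna1h* (SE; edgeR adjusted p = 4.49e-06 and 6.16e-05, lower in SkM in 4 of 4 mice). With all 10 libraries they were -4.14 and -1.98. *Cacna1i*, another T-type pore gene, named after its value was seen, was higher in SkM (4.22 ± 0.638, SE; edgeR adjusted p = 0.000878). It had 0 to 4 counts in the LVs other than WT LV 2. Its mean was 0.0181 per kb there and 0.199 per kb in SkM, and it is not part of the shares below.

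The per kb levels of *Cacna1c*, *Cacna1s*, *Cacna1g* and *Cacna1h* were also expressed as shares of their sum, which leaves out other pore genes such as *Cacna1a*, at 1.15 per kb in the 4 LVs other than WT LV 2 and 0.733 in SkM on average. In the 4 LVs other than WT LV 2, *Cacna1c* made up 82.9% ± 2.87 (SD, n = 4) of their sum, *Cacna1g* 9.53% ± 1.30, *Cacna1s* 4.73% ± 0.733 and *Cacna1h* 2.87% ± 1.01. In SkM, *Cacna1s* made up 99.7% ± 0.0649 (SD, n = 5), and no other gene of the 4 passed 0.149% in any library. WT LV 2 held 53.3% *Cacna1s* and 41.4% *Cacna1c*, unlike any other LV, with 4.05% *Cacna1g* and 1.20% *Cacna1h*. On raw counts these 2 shares were 44.4% and 49.9%, so which of them is larger in WT LV 2 depends on the scale. The summed alpha1 level was 57.1 to 71.5 per kb in the 4 LVs, 112 in WT LV 2 and 227 to 343 in SkM. Over the 3 *E0del/+* LVs the *Cacna1c* share was 83.0% ± 3.50, against 82.5% in WT LV 1, and the *Cacna1s* share in SkM was 99.7% ± 0.110 (SD, n = 2) in WT and 99.7% ± 0.0473 (SD, n = 3) in *E0del/+*.

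**Figure D2:**
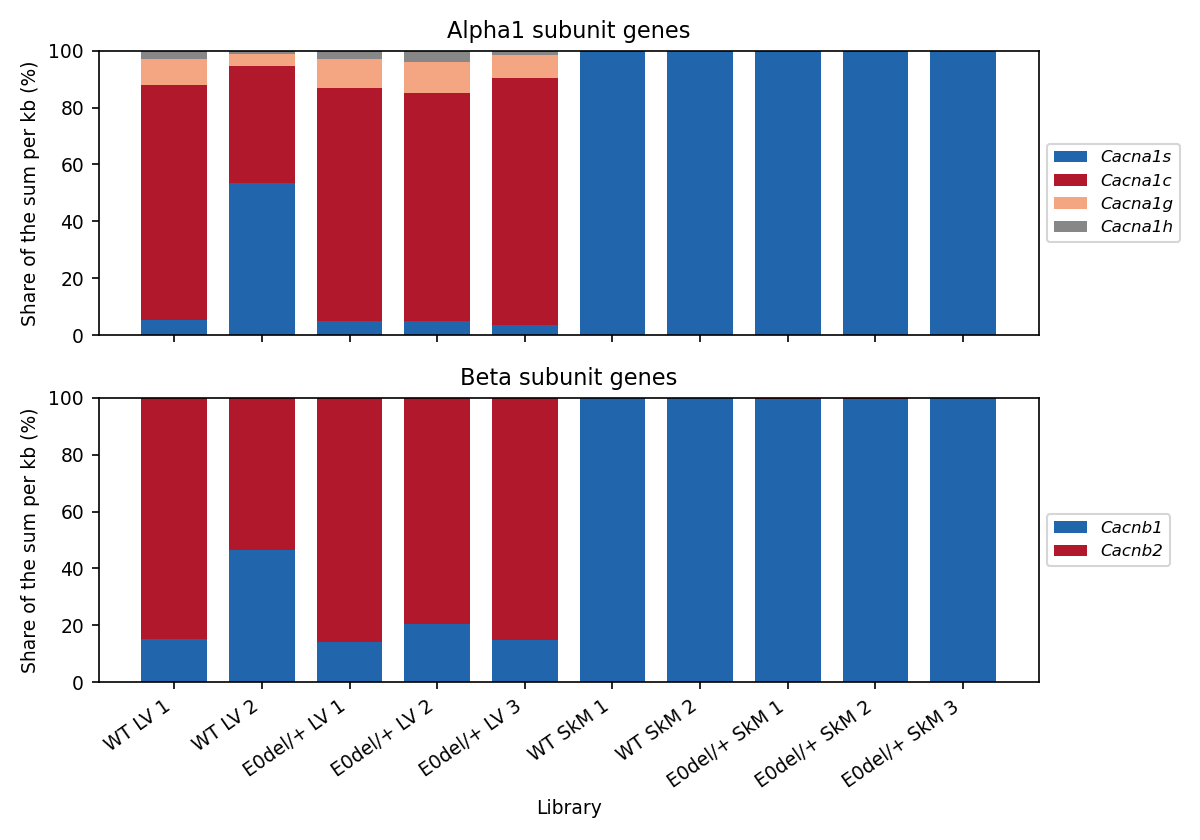
Share of each of 4 alpha1 genes and 2 beta genes in the summed level per kb of those genes, in percent, for each of the 10 libraries. *Cacna1c* and *Cacnb2* fill most of the bars of 4 LVs, *Cacna1s* and *Cacnb1* nearly all of the SkM bars, and WT LV 2 is mixed, with 53.3% *Cacna1s* and 46.5% *Cacnb1*.

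The beta subunits split by tissue as well. *Cacnb2*, the main beta subunit of the heart, was at 131 and 89.4 CPM in WT LVs and at 122, 103 and 117 CPM in *E0del/+* LVs. It was under 1 CPM in every SkM library, at 0.576 and 0.286 CPM in WT and 0.738, 0.866 and 0.493 CPM in *E0del/+*. WT LV 2 was the lowest LV, and LV was 119 to 237 times SkM within the 4 mice and 312 times in the mouse of WT replicate 2. *Cacnb1*, the skeletal beta subunit, was at 13.1 and 42.9 CPM in WT LVs and at 11.0, 14.6 and 11.3 CPM in *E0del/+* LVs, against 186 and 146 CPM in WT SkM and 161, 186 and 145 CPM in *E0del/+* SkM. The lowest SkM library was thus well above WT LV 2, and SkM was 12.7 to 14.6 times LV within the 4 mice but 3.39 times in the mouse of WT replicate 2. The log2 fold changes were -6.79 ± 0.223 for *Cacnb2* and 4.41 ± 0.127 for *Cacnb1* (SE; edgeR adjusted p = 6.26e-07 and 4.05e-07, in the same direction in 4 of 4 mice), and -6.91 and 4.03 with all 10 libraries. Of the summed level of both genes per kb, *Cacnb2* made up 83.8% ± 2.91 (SD, n = 4) in LVs without WT LV 2, and *Cacnb1* made up 99.8% ± 0.0618 (SD, n = 5) in SkM and 46.5% in WT LV 2. *Cacnb3*, at 2.35 per kb in the 4 LVs and 1.58 in SkM on average, is not part of this sum. The sum itself was 29.0 to 34.8 per kb in the 4 LVs, 37.6 in WT LV 2 and 59.1 to 75.9 in SkM.

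*Cacna2d1*, the alpha2delta subunit found with the L-type pores of both tissues, differed least among the 6 genes higher in SkM. It was at 232 and 376 CPM in WT LVs and at 249, 189 and 296 CPM in *E0del/+* LVs. SkM held 735 and 587 CPM in WT and 694, 721 and 617 CPM in *E0del/+*. All SkM libraries were above all LVs, and WT LV 2 was the highest LV. SkM was 2.09 to 3.81 times LV within the 4 mice and 1.56 times in the mouse of WT replicate 2. The log2 fold change was 2.18 ± 0.215 (SE; edgeR adjusted p = 9.95e-05, higher in SkM in 4 of 4 mice) and 2.02 with all 10 libraries. Scaling to total counts without TMM factors moved the median of all genes by -0.65 and gave 1.53 for *Cacna2d1*, under the second fold rule, and -2.53 for *Cacna1h*, past it, so both calls by that rule depend on the scaling. Without *E0del/+* mouse 2 the value for *Cacna2d1* was 1.96, also under that rule.

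The gamma subunit genes *Cacng1* and *Cacng6* were nearly confined to SkM in these libraries, apart from WT LV 2. *Cacng1*, the gamma subunit of the skeletal L-type channel, was at 0.691 and 70.7 CPM in WT LVs and at 0.260, 0.0908 and 0.174 CPM in *E0del/+* LVs. In the 4 LVs other than WT LV 2 this was 9, 4, 1 and 2 counts, whereas WT LV 2 had 786. SkM held 215 and 397 CPM in WT and 234, 255 and 294 CPM in *E0del/+*, with WT SkM 2 the highest. *Cacng6*, a related gamma subunit of skeletal muscle, was at 0.307 and 18.8 CPM in WT LVs and at 1.24, 0.636 and 1.48 CPM in *E0del/+* LVs, which was 4, 209, 19, 7 and 17 counts. In SkM, *Cacng6* was at 67.3 and 89.4 CPM in WT and at 70.9, 68.6 and 80.5 CPM in *E0del/+*. SkM thus lay above every LV for both genes, with WT LV 2 at 25.3% of the SkM level for *Cacng1* and 24.0% for *Cacng6*. SkM was 54.3 to 219 times LV for *Cacng6* within the 4 mice and 4.75 times in the mouse of WT replicate 2. For *Cacng1* no fold is given for *E0del/+* mice 2 and 3, because of their 1 and 2 counts, and it was 311 in WT mouse 1, 899 in *E0del/+* mouse 1 and 5.61 in the mouse of WT replicate 2. The log2 fold changes were 10.22 ± 0.386 for *Cacng1*, which depends on the prior count, and 6.94 ± 0.279 for *Cacng6* (SE; edgeR adjusted p = 1.22e-06 and 1.56e-06, higher in SkM in 4 of 4 mice). With all 10 libraries they were 8.42 ± 1.31 and 5.92 ± 0.734.

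*Stac3*, the adaptor of skeletal coupling, was at 1.84 and 38.3 CPM in WT LVs and at 2.34, 3.09 and 1.05 CPM in *E0del/+* LVs. Its SkM values were 169 and 165 CPM in WT and 161, 179 and 145 CPM in *E0del/+*. The SkM values were close together, the 4 LVs other than WT LV 2 had 12 to 36 counts, and WT LV 2 stood between, at 22.4% of the SkM level. SkM was 58.0 to 139 times LV within the 4 mice and 4.31 times in the mouse of WT replicate 2. The log2 fold change was 6.98 ± 0.2001 (SE; edgeR adjusted p = 4.05e-07, higher in SkM in 4 of 4 mice), and 6.15 ± 0.757 with all 10 libraries.

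Per kb, the order of levels in the 4 LVs was *Cacna1c* (53.9 ± 5.74, SD), *Cacna2d1* (32.3 ± 5.88), *Cacnb2* (26.6 ± 2.68), *Cacna1g* (6.18 ± 0.890), *Cacnb1* (5.10 ± 0.686) and *Cacna1s* (3.07 ± 0.542), with the other 4 genes under 2. *Cacna2d1* and *Cacnb2* overlapped between libraries, as did *Cacna1g* and *Cacnb1*. Further down, *Cacna1h* overlapped with *Cacng6*, and *Cacng6* with *Stac3*. In the 5 SkM libraries the order was *Cacna1s* (289.7 ± 49.7), *Cacng1* (232 ± 60.0), *Cacng6* (96.2 ± 12.03), *Stac3* (91.5 ± 6.91), *Cacna2d1* (89.5 ± 8.74) and *Cacnb1* (66.999 ± 8.30), and the remaining 4 were at or under 0.310 on average. *Cacna1s* and *Cacng1* overlapped, and so did *Cacng6* with *Stac3* and *Stac3* with *Cacna2d1*, whereas *Cacnb1* lay below all 5. Per kb, *Cacnb2* stood at 0.494 ± 0.0344 of *Cacna1c* in the 4 LVs and 0.431 in WT LV 2, and *Stac3* at 0.322 ± 0.0508 of *Cacna1s* in SkM (SD, n = 5). The ratio of *Cacng1* to *Cacna1s* in SkM varied more, from 0.571 in WT SkM 1 to 1.46 in WT SkM 2.

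The level of the skeletal genes in WT LV 2 ran close to that of the fast muscle markers. The 6 genes higher in SkM reached a median of 23.2% (range 19.8% to 31.3%) of their SkM level in this library, against 22.7% for the 10 markers. The 4 genes higher in LV were at 72.9% to 86.3% of their mean in the other LVs, and the 6 cardiac markers at 62.0% to 80.6%. With WT SkM 2, the other tissue of the same mouse, as the reference, the marker median was 19.6% and that of the 6 genes 22.5%. WT LV 2 also had 97 counts of *Syt1* and 42 of *Cacna1b*, named after their values were seen. The other LVs had 0 to 1 and 2 to 4 counts of these genes, and the SkM libraries 0 to 3 and 0 to 4. The source of these counts was not tested.

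**Figure D3:**
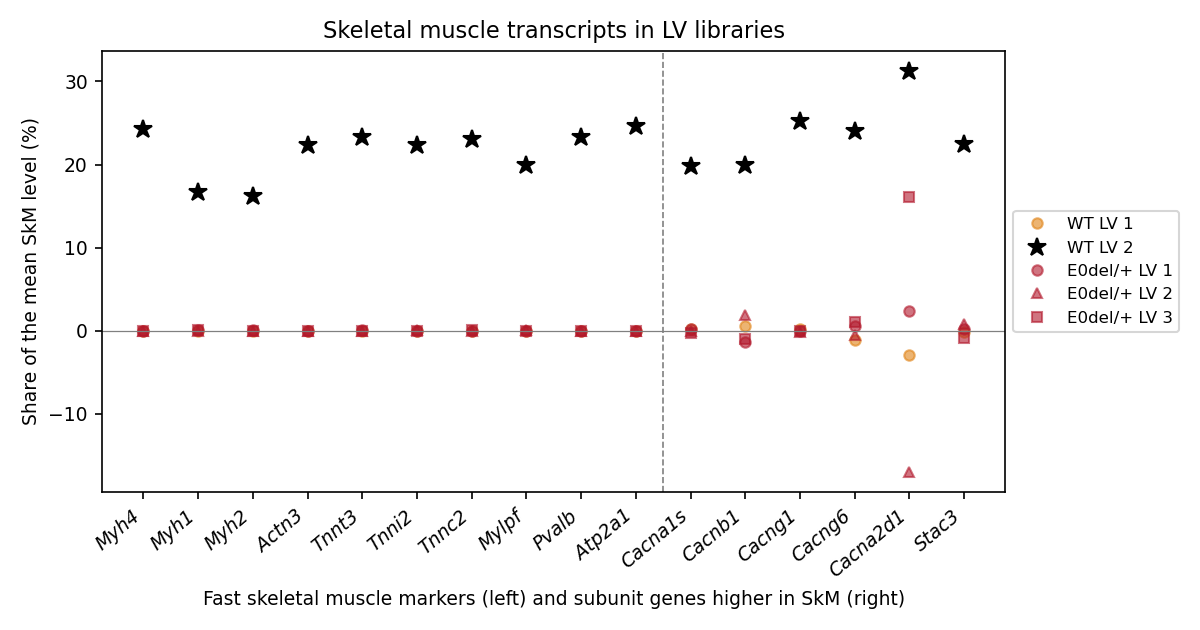
Level of each fast skeletal muscle marker and each of the 6 genes higher in SkM in the LVs, as percent of the mean SkM level after subtraction of the other LVs. WT LV 2 lies between 16.3% and 31.3% for all of them, and the other LVs lie near 0 except for *Cacna2d1*, which ranged from -17.01% to 16.1%.

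Genes that work with these channels were also split between the tissues. Over all genes tested, 29.8% were higher in SkM and 31.5% higher in LV. Of 12 partners in excitation-contraction coupling, all passed edgeR's adjusted p of 0.05, 10 higher in SkM and 2 higher in LV, with a median log2 fold change of 2.47. Of the 10, *Asph* (0.44 ± 0.161, SE) and *Cav3* (0.36 ± 0.120), named after their values were seen, depended on the TMM scaling. Their mean CPM was lower in SkM, at 222 for *Asph* and 42.05 for *Cav3* (n = 5), than in the 4 LVs other than WT LV 2, at 258 and 47.6. *Ryr1*, the skeletal ryanodine receptor, was at 8.37 to 11.9 CPM in the 4 LVs, 2396 CPM in WT LV 2 and 7482 to 11327 CPM in SkM (log2 fold change 10.66 ± 0.315, SE). *Casq1*, the skeletal calsequestrin, was at 9.91 to 21.3 CPM in the 4 LVs and 2615 to 3711 CPM in SkM (8.05 ± 0.309), while the differences of *Srl* (1.68 ± 0.258) and *Jph2* (1.47 ± 0.204) were smaller. The 2 genes higher in LV, named after their values were seen, were *Ryr2* (-8.93 ± 0.365) and *Casq2* (-4.46 ± 0.480), the cardiac receptor and calsequestrin. Per kb, *Ryr1* stood at 2.22 ± 0.205 times *Cacna1s* in SkM (SD, n = 5) and *Ryr2* at 3.29 ± 0.508 times *Cacna1c* in the 4 LVs (SD, n = 4). Of 14 channel regulators 13 were tested, 6 higher in SkM (29.8% of all genes tested) and 7 higher in LV (31.5%). *Calm2* (1.32 ± 0.107) and *Calm3* (1.67 ± 0.130), which encode calmodulin, were higher in SkM, and *Rrad*, a small GTPase that inhibits L-type current, was higher in LV (-5.06 ± 0.225).

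Of 19 other genes of the channel family, 10 had enough counts to be tested. Of these, 3 were higher in SkM (29.8% of all genes tested), 2 higher in LV (31.5%) and 5 passed in neither direction. The 4 most abundant per kb were *Cacng7*, *Cacnb3*, *Cacna1a* and *Cacna2d4*. *Cacng7* (log2 fold change 1.76 ± 0.292, SE) and *Cacna2d4* (7.03 ± 0.757) were higher in SkM. The value for *Cacna2d4* depends on the prior count, since it had 5 counts in *E0del/+* LV 1 and 0 in WT LV 1 and *E0del/+* LVs 2 and 3. The log2 fold changes of *Cacnb3* (-0.17 ± 0.630) and *Cacna1a* (0.20 ± 0.201) were small beside their SE or close to it. Over all 10 libraries, genes whose log2 CPM was much like that of *Cacna1c* among 8646 genes included *Ndrg4* and *Cacnb2* (Pearson r = 0.9986 and 0.9983), and the genes most like *Cacna1s* were *Neb*, *Kcnma1* and *Plcd4* (0.9988, 0.9986 and 0.9985). Such values were common, since 244 genes exceeded 0.99 with *Cacna1c* and 80 with *Cacna1s*, and likeness within a tissue was not tested.

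The second comparison asked whether loss of 1 copy of E0 went with a change of these genes in LV. No called difference was found: 0 of the 9 genes tested passed in edgeR's test, as did 0% of the 13420 genes tested, and *Cacng1* had too few counts to enter. At an unadjusted p under 0.05 there were 564 genes, 4 of them channel genes, and DESeq2 called 12 genes, none of them a channel gene. The subunits higher in LV had log2 fold changes (*E0del/+* minus WT) of 0.03 ± 0.229 for *Cacna1c*, 0.16 ± 0.191 for *Cacna1g* and 0.06 ± 0.298 for *Cacna1h* (SE, n = 2 and 3). For *Cacnb2* the value was -0.00048 ± 0.206. Without WT LV 2 these 4 values were -0.02 ± 0.317, 0.02 ± 0.242, -0.12 ± 0.341 and -0.19 ± 0.253, and leaving out other single LVs moved *Cacna1g* between 0.0038 without *E0del/+* LV 1 and 0.32 without WT LV 1.

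The 4 channel genes with an unadjusted p under 0.05 in LV were skeletal subunits with high counts in WT LV 2. Their log2 fold changes were -3.57 ± 0.886 for *Cacna1s*, -3.35 ± 0.980 for *Stac3*, -3.17 ± 1.15 for *Cacng6* and -1.29 ± 0.435 for *Cacnb1* (SE; edgeR adjusted p = 0.997 for each). Without WT LV 2, when WT is 1 library assumed to vary like the others, they were -0.30 ± 0.252, 0.21 ± 0.598, 1.86 ± 0.972 and -0.10 ± 0.257, and 0 genes were called by edgeR, with 104 at an unadjusted p under 0.05. Without WT LV 1, WT LV 2 stood alone for WT and 578 genes were called, 574 of them lower in *E0del/+*, among them 5 channel genes: *Cacna1s* (-4.49), *Cacnb1* (-1.94), *Cacng1* (-8.63), *Cacng6* (-4.16) and *Stac3* (-4.28). For *Cacna2d1* the log2 fold change was -0.38 ± 0.320 with all 5 LVs and 0.10 ± 0.339 without WT LV 2.

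The labels give each library a batch that equals its replicate number, so WT and *E0del/+* mice can be set side by side in batches 1 and 2, and batch 3 holds *E0del/+* only. For the log2 ratios given here, 0.5 was added to each CPM, which pulls genes with low CPM toward 0. In LVs of batch 1 the log2 ratio of *E0del/+* to WT was -0.06 for *Cacna1s*, -0.25 for *Cacnb1* and 0.28 for *Stac3*. In batch 2, whose WT library is WT LV 2, it was -4.34, -1.52 and -3.44. For *Cacng6* it was 1.11 in batch 1 and -4.09 in batch 2, and for *Cacng1* -0.65 and -6.91, both with few counts outside WT LV 2. Without the added 0.5, the plain ratios in batches 1 and 2 were 4.03 and 0.0338 for *Cacng6* and 0.377 and 0.00128 for *Cacng1*. The log2 ratio of *Cacna2d1* was 0.10 in batch 1 and -0.99 in batch 2. Among the subunits higher in LV, it was 0.10 in batch 1 and -0.03 in batch 2 for *Cacna1c*, 0.25 and 0.44 for *Cacna1g*, 0.08 and 0.77 for *Cacna1h* and -0.11 and 0.20 for *Cacnb2*. With the batch as a block, edgeR called 5 genes in LV and no channel gene. Of these, named after their values were seen, *Kdm5d*, *Uty*, *Ddx3y* and *Eif2s3y* are Y-linked, and the fifth was *Mstn*. Of the 12 genes called by DESeq2, 8 were fast skeletal muscle markers, and *Ryr1* was another. All *E0del/+* LVs were below both WT LVs for *Cacna1s*, and for *Cacng1*, which was not tested, as for 6.53% of all genes tested, and above both for 0 channel genes against 8.82%.

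**Figure D4:**
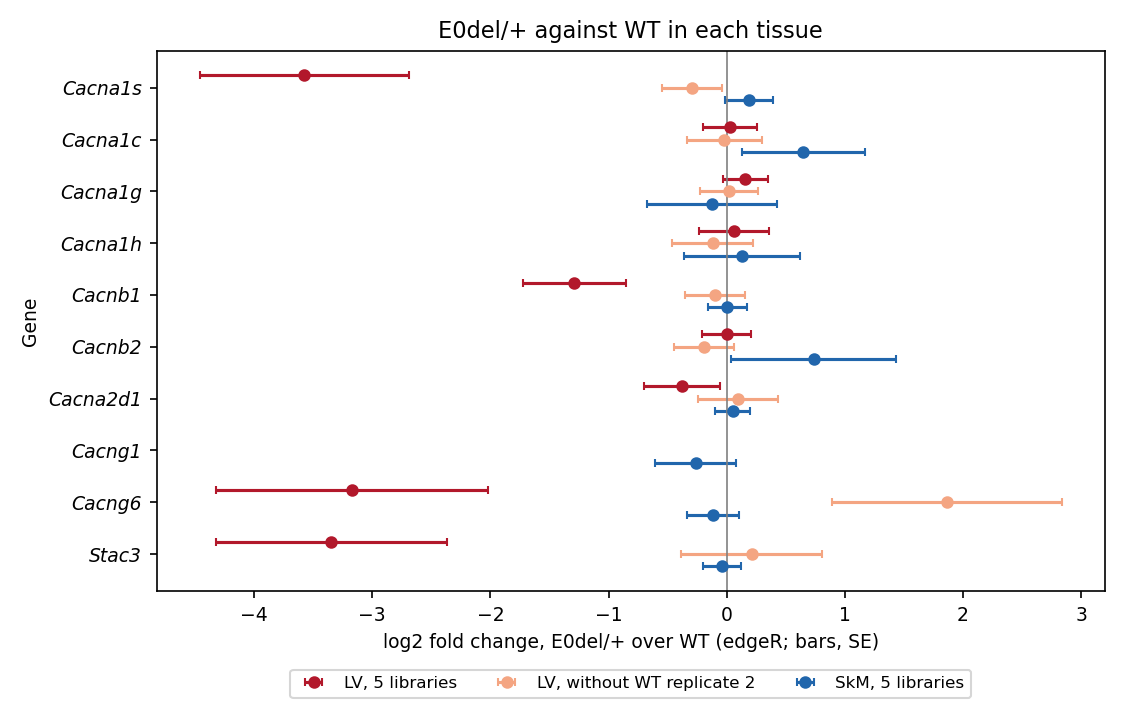
Log2 fold change of each channel gene, *E0del/+* minus WT, in LV with and without WT LV 2 and in SkM, with bars of 1 SE. In LV the values of *Cacna1s*, *Stac3* and *Cacnb1* lie at -3.57, -3.35 and -1.29 with WT LV 2 and at -0.30, 0.21 and -0.10 without it.

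In SkM, the same question gave no called difference. Of the 10 channel genes 0 passed edgeR's test, as did 0% of the 13154 genes tested, and 0 channel genes and 114 genes in all had an unadjusted p under 0.05. DESeq2 called 0 genes, and with the batch as a block edgeR called 1, the Y-linked *Eif2s3y*, named after its value was seen. The skeletal subunits had log2 fold changes of 0.19 ± 0.205 for *Cacna1s*, 0.0026 ± 0.165 for *Cacnb1*, -0.26 ± 0.343 for *Cacng1*, -0.11 ± 0.220 for *Cacng6*, 0.05 ± 0.149 for *Cacna2d1* and -0.04 ± 0.161 for *Stac3* (SE, n = 2 and 3). Less abundant in SkM, the cardiac subunits gave wider errors, with 0.65 ± 0.521 for *Cacna1c*, 0.74 ± 0.698 for *Cacnb2*, -0.12 ± 0.550 for *Cacna1g* and 0.13 ± 0.491 for *Cacna1h*. These values depended on single libraries, and without WT SkM 1 or without WT SkM 2 that of *Cacna1c* was 1.30 or 0.20 and that of *Cacnb2* 1.15 or 0.41. For *Cacna1s* the value ranged from 0.058 without *E0del/+* SkM 2 to 0.30 without WT SkM 1. The 2 genotypes overlapped for all 10 genes, whereas 7.31% of the genes tested had all *E0del/+* libraries below both WT libraries and 4.14% had them above. Within batches, 5 of the 10 genes were higher in *E0del/+* SkM in batch 1 and 8 in batch 2, with WT SkM 2 as the WT library of batch 2. In LV these counts were 6 and 3, with WT LV 2 as the WT library of batch 2. WT SkM 2 and *E0del/+* SkM 3 were the 2 lowest SkM libraries for 7 of the 10 genes and for 28.8% of all genes tested in SkM. The share over all genes was not counted within batches, so nothing is read from the within-batch counts. Without WT SkM 1, the library with intermediate Y-linked counts, edgeR called 0 genes and 1596 had an unadjusted p under 0.05, among them *Cacng1* (-0.72 ± 0.197) and *Cacng6* (-0.41 ± 0.154). Without WT SkM 2 these were 0.42 ± 0.211 and 0.26 ± 0.159, so the sign for both gamma genes depends on which WT library is kept.

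Whether the genotype effect differed between tissues was tested with the mouse as a block. For 0 of the 10 channel genes did the difference (SkM minus LV) pass edgeR's test, as for 0% of the 14327 genes tested, with 238 genes at an unadjusted p under 0.05 and 0 called by DESeq2. The only channel gene with an unadjusted p under 0.05 was *Cacng1*, with a difference of 5.66 ± 1.96 on the log2 scale (SE), and of 2.31 ± 0.735 without the mouse of WT replicate 2, where its unadjusted p in edgeR was 0.0155 and its LV counts were 9 or fewer. For *Cacna1s* the difference was 2.58 ± 1.33 with all 10 libraries and 0.47 ± 0.536 without the mouse of WT replicate 2, when 0 genes were called and 161 had an unadjusted p under 0.05. Without the mouse of WT replicate 1, 155 genes were called, among them *Cacng1* (7.83), *Cacna1s* (4.75), *Stac3* (4.13), *Cacng6* (3.71) and *Cacnb1* (1.94). With all 10 libraries the differences were 2.31 ± 1.24 for *Stac3*, 2.02 ± 1.36 for *Cacng6* and 1.00 ± 0.535 for *Cacnb1* (SE), and without the mouse of WT replicate 2 they were -0.02, -1.51 and 0.13, so the sign for *Stac3* and *Cacng6* depended on that mouse.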

How the data were processed

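Poly-A RNA of LV and SkM from 5 mice was sequenced from Nextera XT libraries, which carry no strand information. The authors deposited a raw count and an RPKM value for each gene and library. Dividing the counts by summed exon length and library total gave back the deposited RPKM, which had no other use. The submitters' processing notes name STAR, DESeq2 and mm10, and the counting tool, annotation and treatment of multi-mapping reads are not given in the sources used here. For 20953 genes whose symbols are also in GENCODE M21, 99.4% of positions overlapped on mm10.

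Genes were tested on raw counts in R 4.3.3 with edgeR 4.0.16 (filterByExpr, TMM, quasi-likelihood test, Benjamini-Hochberg adjustment over all genes tested, threshold 0.05), and SE is the absolute log2 fold change divided by the square root of F. A run on simulated counts served to check the code only. It held no library like WT LV 2, so it does not show what the genotype tests could detect here. Tissues were compared in 8 libraries with the mouse as a block, and genotypes in the 5 libraries of each tissue without a block. DESeq2 1.42.0, other scalings, no filter, blocks and each library left out were alternatives. Tables and plots were made in Python 3.11.15. Each library had at least 11010021 counts, and a group had 2 or 3 mice.

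Replicate numbers equal the batch in the labels, and both tissues of a mouse share its number. The correlation of deviations from group means was 0.0222 and -0.168 in LV and 0.462 and 0.286 in SkM for batches 1 and 2, and -0.115 to 0.116 between the tissues of a mouse. The 2 WT mice share the value of 0.116, since deviations of 2 libraries from their mean mirror each other. For the same reason the values of batches 1 and 2 are not independent.

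All 10 channel genes are named, and from each other list the counts and at most 4 genes with the highest level per kb, any gene called between genotypes and the most abundant marker. Further genes of the lists, such as *Ryr2*, *Casq2*, *Asph*, *Cav3* and *Nkx2-5*, were named after their values were seen. Likeness was Pearson's r of log2(CPM + 0.5) among genes with a mean of at least 10 CPM. The lists were other channel genes, coupling partners, channel regulators, Y-linked genes and markers of fast and slow skeletal, cardiac, atrial, conduction, smooth muscle, nerve, adipose, fibroblast and endothelial cells. Members and lists were chosen with earlier results of these data known.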

Additional observations from a re-analysis of the deposited data

Results flagged for a closer look

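In a group of 5 libraries, the gap between the highest or lowest value and its nearest neighbor was divided by the range of the group, and values past Dixon's 95% limit of 0.71 are given here. Such a value arises by chance in about 1 of 20 groups, and it was found for 10.7% of the 13420 genes tested in LV (through WT LV 2 for 4.64% of the 13420) and for 4.86% of the 13154 genes tested in SkM. Of the 10 channel genes, 5 passed the limit among the 5 LVs, each time through WT LV 2: *Cacna1s* at 375 CPM, *Cacnb1* at 42.9 CPM, *Cacng1* at 70.7 CPM, *Cacng6* at 18.8 CPM and *Stac3* at 38.3 CPM. Of 5 shares within the alpha1 and beta classes, 3 passed it in LV through the same library, in which *Cacna1c* made up 41.4% and *Cacna1s* 53.3% of the alpha1 level per kb, and *Cacnb1* 46.5% of the beta level. WT LV 2 had been set apart beforehand for its skeletal muscle counts, so the values past the limit in LV are a description and not an independent result. The shares restate the same counts as the CPM values. In the 5 SkM libraries, 0 of 10 genes and 0 of 5 shares passed. WT LV 2 was also the LV with 39920 CPM of fast skeletal muscle markers, and the part of these counts in the values above was not tested beyond the percentages given with them. Groups of 2 or 3 libraries were too small for this measure.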

How the results depend on the processing

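The tissue differences of the 10 channel genes held under all 10 alternatives: 100 of 100 values kept their direction and stayed called by an adjusted p under 0.05. Between genotypes in LV, 70 of 90 values kept their sign and side of the threshold, 4 became called, all without WT LV 1, and 16 changed sign, and in SkM 84 of 98 were kept and 14 changed sign with none called. Genes called in LV, 0 with edgeR, were 12 with DESeq2's Wald test, 5 with the replicate block and 0 to 578 when a library was left out. In SkM the replicate block called 1 gene in place of 0, and for the difference between tissues leaving out a mouse gave 0 to 155. The replicate block changed no call of a channel gene between genotypes. Between tissues, 8628 genes were called without the mouse as a block and 8202 with it.

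Log2 fold changes that changed sign were near 0 or rested on 1 library, and the cause was not tested. In LV, the replicate block gave -0.083 for *Cacna1c*, and *Cacnb2* was 0.0016 with DESeq2's size factors, 0.045 with total counts, 0.0015 with DESeq2 and 0.0033 without a filter. Leaving out a library in LV gave -0.059 to 0.19 for *Cacna1c*, -0.12 to 0.30 for *Cacna1h*, -0.19 to 0.23 for *Cacnb2*, -4.16 to 1.86 for *Cacng6*, -0.73 to 0.099 for *Cacna2d1* and -4.28 to 0.21 for *Stac3*. In SkM, the replicate block gave 0.16 for *Cacna1g* and 0.023 for *Stac3*, and *Cacnb1* was -0.0044 with DESeq2's size factors, -0.016 with total counts and -0.0045 with DESeq2. Leaving out a library in SkM gave -0.56 to 0.51 for *Cacna1g*, -0.32 to 0.79 for *Cacna1h*, -0.13 to 0.052 for *Cacnb1*, -0.72 to 0.42 for *Cacng1*, -0.41 to 0.26 for *Cacng6*, -0.029 to 0.087 for *Cacna2d1* and -0.16 to 0.077 for *Stac3*. In LV *Cacng1* could be fitted only without a filter or without WT LV 1, and in SkM *Cacnb2* fell under the filter without *E0del/+* replicate 1 or 2.

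Raw counts in place of counts per kb gave shares of 99.6% for *Cacna1s* and 99.6% for *Cacnb1* in SkM and 90.3% for *Cacnb2* in LV, which follows from the gene lengths used. The share of *Cacnb1* in the 4 LVs moved from 16.2% to 9.67%, and in WT LV 2 *Cacna1s* moved from 53.3% to 44.4% and *Cacna1c* from 41.4% to 49.9%, which reversed their order. With WT SkM 2 as the reference, the fast markers of WT LV 2 were at 19.6% of the SkM level. Total counts without TMM factors called 9387 genes between tissues, 1698 higher and 7689 lower in SkM, against 3991 and 4211. The limits are 2 WT mice, of which 1 LV and 1 SkM library stood apart, a batch with *E0del/+* only, sex not in the labels, and few counts for *Cacng1*, *Cacng6* and *Stac3* in LV and *Cacnb2* in SkM. Counts of exons do not separate splice forms of a channel gene.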

Other observations

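Slow skeletal muscle markers differed among the SkM libraries. *Tnni1* and *Tnnt1* summed to 175 and 17.3 CPM in WT SkM 1 and 2 and to 198, 302 and 36.2 CPM in *E0del/+* SkM 1 to 3, and the cardiac markers to 2149 and 204 CPM and to 1297, 1385 and 153 CPM, with *Nkx2-5* at 0 counts in 4 of the 5. *Actc1* made up most of the cardiac sum, at 2060.2 and 148 CPM and at 1012, 1233 and 95.01 CPM, and *Tnnt2* was higher in WT SkM 2 (9.95 CPM) than in WT SkM 1 (7.99 CPM). WT SkM 2 and *E0del/+* SkM 3, the lowest in both sums, were also the 2 lowest SkM libraries for 7 of the 10 channel genes and the 2 highest for *Cacng1* and *Cacng6*. This was noticed after the values were seen. The same 2 libraries were the lowest for 28.8% and the highest for 13.9% of the 13154 genes tested in SkM, and they were the SkM libraries with 158 and 177 CPM of Y-linked genes. The alpha2delta gene *Cacna2d4* followed the gamma genes, at 6.33 and 29.9 CPM in WT and 4.86, 4.06 and 28.3 CPM in *E0del/+*. Sex, fiber type and sampling site cannot be told apart here.

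Among the remaining lists, the tissue comparison called all 10 fast, both slow and all 5 adipose markers higher in SkM, and all 6 cardiac, 4 fibroblast and 4 endothelial markers higher in LV. Over all genes tested, 29.8% were higher in SkM and 31.5% higher in LV. Of the smooth muscle markers 2 of 5 were higher in LV, of the 3 atrial and 3 conduction markers tested 1 was higher in each tissue, of the 2 nerve markers tested 1 was higher in SkM, and of the 2 Y-linked genes tested 0 passed. Between genotypes and for the difference between tissues, 0 genes of any list passed edgeR's test with all libraries and no batch block, and with that block 4 Y-linked genes passed in LV and 1 in SkM. In LV, all 10 fast markers and 3 of 3 adipose markers tested had an unadjusted p under 0.05, with median log2 fold changes of -6.84 and -3.47. The adipose sum was 245 CPM in WT LV 2 and 1.57 to 20.96 CPM in the other LVs, with *Cfd* the most abundant. In SkM it was 7.84 CPM in WT SkM 2 and up to 1037 CPM in the others, so in the mouse of WT replicate 2, which was left out of the tissue comparison, all 5 adipose markers were lower in SkM.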
